A study of Mus musculus with 7 samples.

Results

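The cytosolic ribosomal proteins were followed in mouse prostate, as transcripts whose gene symbol is Rpl or Rps followed by a digit, or Rplp0, Rplp1, Rplp2 or Rpsa, leaving out the Rps6k kinases and pseudogene symbols ending in -ps. The RefSeq table holds 95 such genes. Of these, 84 had a probe on the array, out of 17016 genes with a named probe, and 79 could be tested. The rule also takes in Rps19bp1, which is named for binding Rps19 and is not itself a ribosomal protein. Among the 79 were 45 proteins of the large subunit, 28 of the small subunit and 5 paralogs, which are genes closely related to a main ribosomal protein gene.

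The study asked how prostate expression differs when that organ makes the free intracellular part of Notch1, a form of this receptor that signals without a ligand. The 3 PB-NICD samples came from C57Bl/6 mice carrying ARR2PB-Cre, a recombinase under a prostate promoter, together with the ROSA(N1IC) allele, a model with prostatic intraepithelial neoplasia per the labels. The control group, 4 samples, was of C57Bl/6 mice with ROSA(N1IC) that are labelled as wild-type for the domain, so the allele is named in both groups. The labels give no age, do not say which lobes were taken, and do not say whether each sample came from 1 mouse, so a p-value measures the spread between these samples, which may be technical. Each sample was read in red against a universal mouse reference RNA in green on its own 2-colour Agilent array.

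The eukaryotic ribosome has a small subunit, which reads the messenger RNA, and a large subunit, which joins amino acids into a chain. The proteins of both are made in matched amounts, and many of their messenger RNAs start with a run of pyrimidines, the 5′ terminal oligopyrimidine tract, through which mTOR signalling controls their translation. On the large subunit the acidic stalk, built from Rplp0, Rplp1 and Rplp2, recruits the factors that drive elongation.

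Values are log2 ratios of prostate over reference, and a change is the mean of the PB-NICD arrays less that of the control arrays. The red channel was well above background for 44.8% to 66.8% of probes per array. Notch1 itself read 0.05, 0.30, 0.84 and 0.67 on the control arrays and 2.63 and 2.74 on PB-NICD 2 and 3. On PB-NICD 1 the scanner software called its spot an outlier, so it did not enter the fit, but it reads 2.47 there. Arrays lay on 2 slides: controls 1 and 2 and PB-NICD 1 on the first, and controls 3 and 4 and PB-NICD 2 and 3 on the second. Markers of luminal cells, the secretory epithelium, averaged 3.5 to 3.67 per control array and 3.38 to 3.68 per PB-NICD array, so that the epithelium the tissue label calls for was present. These means skip missing spots, such as that of Cd24a on controls 1 and 3 and PB-NICD 1. Svs4, a seminal vesicle protein, read 9.39 on control 2 and 5.75 on PB-NICD 1, and at most 2.36 on the other arrays.

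After loess, which removes from each array any trend of the ratio with brightness, 13 ribosomal protein transcripts were lower in PB-NICD and 1 was higher (limma, Benjamini-Hochberg adjusted p below 0.05 over all 16939 items tested, an item being a named gene or an unnamed transcript), but under median centring of each array in place of loess none was lower and 31 were higher. Over all items, 5.07% were called lower and 3.57% higher after loess, and 1.65% lower and 25.5% higher under median centring. The direction of the family as a whole therefore hung on the normalization. What kept its place under every alternative tried was the order of a few members within the family. Rps27l, Rplp1 and Rplp0 were among the lowest 10 members, and Rpl27a, Rpl14, Rpl31 and Rps19 among the highest 10, in the main setting and in all 23 alternatives. All of these alternatives reuse the same arrays or a part of them. The members named were picked for their place in these same data, so their staying there does not replicate the result.

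Short stretches of promoter around the annotated start are shown for 3 low members, 3 high members and 1 member in between, because the pyrimidine run is the shared feature by which these messenger RNAs are known. They come from RefSeq promoters of GRCm38.p6, read 5′ to 3′ along the gene, and capitals mark the longest run of C and T within 50 bases of the start. The intervals are chr9:66946063-66946092 (plus strand) for Rps27l, chr5:115559466-115559495 (plus) for Rplp0, chr14:24490698-24490727 (plus) for Rps24, chr7:109519186-109519215 (plus) for Rpl27a, chr9:120571501-120571530 (plus) for Rpl14, chr1:39367824-39367853 (plus) for Rpl31 and chr17:33955648-33955677 (minus) for Rps18.
Rps27l: actcctctccaCTCCTCCCCgccgcctcta
Rplp0: aggaccgcctggTTCTCCTataaaaggcac
Rps24: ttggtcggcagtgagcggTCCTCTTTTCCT
Rpl27a: gtgagCTCCTCCCTTTTCCCTTTCTgccac
Rpl14: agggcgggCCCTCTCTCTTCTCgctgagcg
Rpl31: ctcgccacaCCTCTTCCTCCTCgcctcccc
Rps18: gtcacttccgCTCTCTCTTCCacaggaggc
In Rpl27a the run of 20 bases spans the start, from 4 bases before it to base 16, and in Rps18 a run of 11 bases goes from 2 bases before the start to base 9. The run of Rpl14 spans the start too, from 8 bases before it to base 6. The runs of Rps27l and Rpl31 end before the start, and those of Rplp0, of 7 bases, and Rps24 lie after it.

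Of the 79 tested members, 61 had a promoter in the RefSeq table. A run of at least 8 bases that are each C or T, on the gene's own strand and within 50 bases of the start, was found in 49 of them (80.3%), against 35.7% of all 27025 promoters. Among members called lower it was in 6 of 8, and among those not called in 42 of 52. The median length of the longest run was 11 bases in members called lower and 10 in those not called. The stretches printed above are single examples and do not show this. The median change after loess was -0.25 for the 49 with a run and -0.18 for the 12 without one. The letters CCGGAAG, an Ets-type motif searched on both strands of the 300 bases, were in 39.3% of members' promoters and 9.12% of all, and members with and without them had the same median change of -0.24. The letters AAGATGGCG, part of the YY1 motif, were in 6.56% of members' promoters, 4 in all, and 1.49% of all promoters. They were in 2 of the 8 members called lower and 2 of the 52 not called, with a median change of -0.34 for the 4 members with them and -0.24 for the 57 without. All 3 motifs were thus more frequent in members' promoters than in promoters at large, and none of these differences was tested.

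Of the acidic stalk, Rplp1 and Rplp0 were at the low end of the family, and Rplp2 was less so. Rplp1 read 3.08, 3.22, 3.17 and 2.81 on the control arrays and 2.13, 2.23 and 2.13 on the PB-NICD arrays. All 3 PB-NICD values lay below all 4 control values, with a gap wider than the spread within either group. The change of -0.90 (SE 0.12, limma adjusted p = 0.00136) is 1.87-fold lower.

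Rplp0, the base of the stalk and a common reference gene in quantitative PCR, read 2.34, 2.14, 2.07 and 2.01 in controls and 1.51, 1.34 and 1.38 in PB-NICD. The groups did not overlap, and the change was -0.73 (SE 0.12, limma adjusted p = 0.0033). A second probe of Rplp0 gave -0.67. Under median centring Rplp1 was at -0.09 and Rplp0 at 0.09, neither past the threshold, while the median of all items moved to 0.27 from -0.03 after loess. Relative to that shifted median the 2 genes lay at -0.36 and -0.19. Rplp0 also missed the threshold with the scanner software's processed signals (change -0.45, adjusted p = 0.0951).

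Rplp2, the partner of Rplp1 on the stalk, is given here after its values were seen. It read 2.26, 2.46, 1.99 and 2.10 in controls and 1.79, 1.81 and 1.77 in PB-NICD. These groups did not overlap either, but the change of -0.41 (SE 0.13) missed the threshold (limma adjusted p = 0.0792). Counted from the lowest change, Rplp2 ranked 22 among the members, and from 13 to 40 over all settings. Under median centring it was at 0.41, or 0.14 relative to the median of all items.

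**Figure D1:**
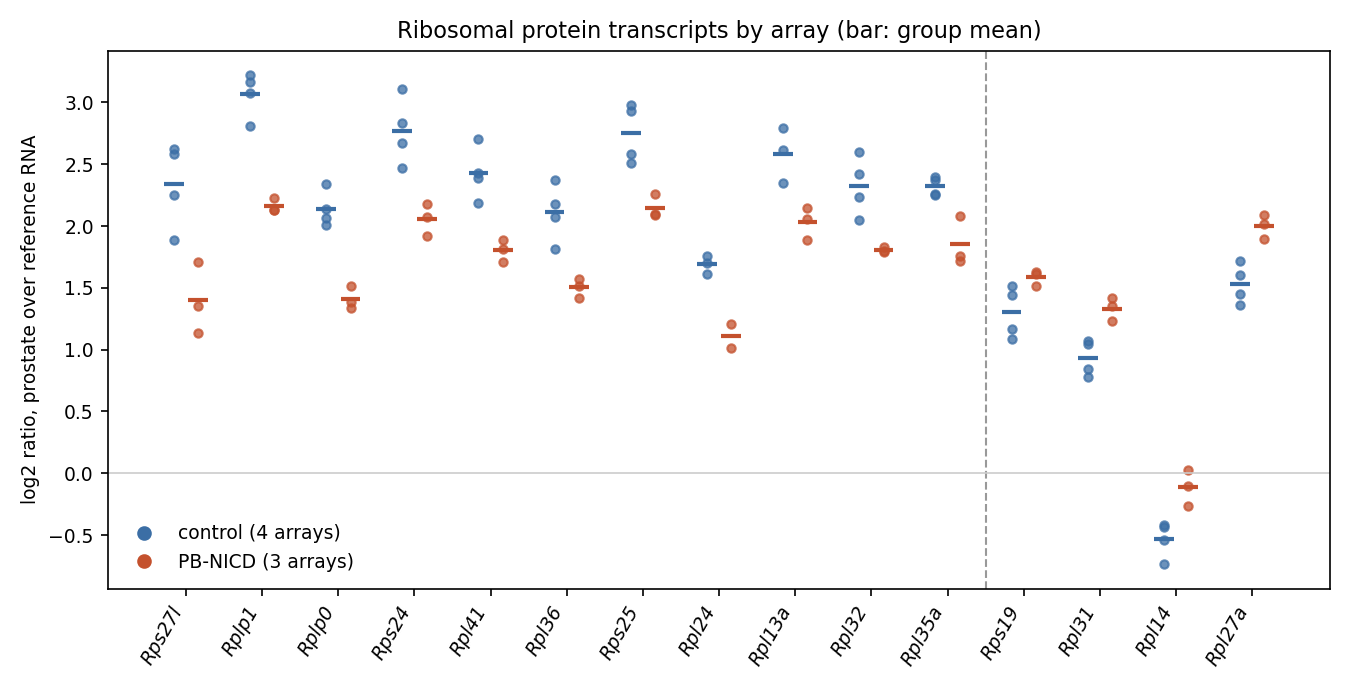
Log2 ratio of prostate over reference RNA after loess for 11 of the 13 members called lower, left of the dashed line, and the 4 members with the largest rise in value, right of it. Each point is an array and each bar a group mean. The PB-NICD points of Rplp1 lie between 2.13 and 2.23, below controls at 2.81 to 3.22; with median centring in place of loess, 11 of the 13 lower members changed sign.

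Among other large subunit members, Rpl41, a very short protein at the subunit interface, read 2.70, 2.39, 2.43 and 2.19 in controls and 1.89, 1.71 and 1.82 in PB-NICD. Rpl36 read 2.38, 2.08, 2.18 and 1.81 in controls and 1.57, 1.42 and 1.52 in PB-NICD. Neither gene's groups overlapped. The change was -0.62 (SE 0.13, limma adjusted p = 0.0156) for Rpl41 and -0.61 (SE 0.14, limma adjusted p = 0.0224) for Rpl36, whose second probe gave -0.62. Under median centring both were above 0, at 0.20 and 0.16, and not past the threshold. Without PB-NICD 2 both missed the threshold, with adjusted p of 0.0721 and 0.0921, as did Rpl36 without PB-NICD 1 (0.0526) or PB-NICD 3 (0.0609).

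Rpl13a, a large subunit protein also known for a role in silencing inflammatory transcripts, read 2.61, 2.80 and 2.35 on controls 1, 2 and 4 and 2.06, 1.89 and 2.14 in PB-NICD. Its control 3 spot was an outlier and was left out. The groups did not overlap, and the change of -0.56 (SE 0.14) was just inside the threshold (limma adjusted p = 0.0456). Leaving out control 1 or 2, or any of the PB-NICD arrays, ended that call, with adjusted p of 0.0715 to 0.159, and under median centring its change was 0.39 (adjusted p = 0.0861). In all, 8 of the 45 large subunit members were lower (5.07% of all items) and 1 was higher (3.57%) after loess, with a median change of -0.25.

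Of the 28 small subunit members, 4 were lower (5.07% of all items) and none was higher (3.57%) after loess. Of the same members, 11 had an unadjusted p below 0.05 with a negative change (12.8% of all items) and 0 with a positive one (8.93% of all items). The median change was -0.22. Rps24, one of the proteins mutated in Diamond-Blackfan anaemia, read 2.84, 3.11, 2.67 and 2.47 in controls and 2.18, 1.92 and 2.08 in PB-NICD. The groups did not overlap, and the change was -0.71 (SE 0.15, limma adjusted p = 0.0165). Under median centring it was 0.10, and without PB-NICD 2 the adjusted p was 0.0777.

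Rps6, the protein phosphorylated by the S6 kinases, read 1.71, 1.67 and 1.70 in 3 controls and 1.66 and 1.60 in 2 PB-NICD samples, the others being outlier spots. The change of -0.06 (SE 0.13, limma adjusted p = 0.827) was small, and it was 0.69 under median centring (adjusted p = 0.0301). Rps18, often used as a reference gene, read 2.37, 2.11, 2.20 and 1.89 in controls and 2.01, 1.89 and 1.91 in PB-NICD. Its groups overlapped, with a change of -0.21 (SE 0.13, limma adjusted p = 0.396) after loess and 0.60 (adjusted p = 0.0419) under median centring. Among the 3 members often used to normalize other assays, Rplp0 and Rpl13a were thus called lower after loess and Rps18 was not.

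The other 6 members called lower lie outside the naming rule and are given from their values. They include Rps25, Rpl24, Rpl32 and Rpl35a, with changes from -0.60 to -0.47. In each of these 4 the PB-NICD values lay below all control values. The second probe of Rps25 gave -0.04 where the brighter one gave -0.60, so that call rests on 1 of its 2 probes. The second probes of Rpl24 (-0.29) and Rpl35a (-0.36) had the same sign. Neither passed the threshold in a fit over all probes (limma adjusted p = 0.159 and 0.201). The Rpl24 probe used had 3 control and 2 PB-NICD values. Across the family, 28 members had more than 1 tested probe, and in 5 of them (Rpl22, Rpl37, Rps28, Rps3 and Rpsa) a probe of the opposite sign was seen.

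Rps27l, a paralog of Rps27 that is induced by p53, had the lowest change of all members. It read 2.59, 2.63, 1.89 and 2.25 in controls and 1.35, 1.14 and 1.71 in PB-NICD. The groups did not overlap, though control 3 lay close to PB-NICD 3. The change was -0.94 (SE 0.20, limma adjusted p = 0.0147), or 1.92-fold lower. It was -0.20 under median centring, or -0.47 relative to the median of all items there, and it missed the threshold without PB-NICD 1 (adjusted p = 0.0534) or PB-NICD 2 (0.071).

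Its parent Rps27 read 2.96, 2.88, 2.09 and 2.30 in controls and 2.51, 2.24 and 2.27 in PB-NICD, which overlap. Its change was -0.22 (SE 0.21, limma adjusted p = 0.612). In both Rps27 and Rps27l the controls of the first slide were higher than those of the second. Whether the changes of parent and paralog differed was not tested.

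None of the other paralogs passed the threshold in the main setting. Rpl36al read 2.96, 2.47, 2.97 and 2.74 in controls and 2.19, 2.45 and 2.43 in PB-NICD, and its parent Rpl36a read 2.10, 1.87, 1.94 and 1.76 in controls and 1.58, 1.60 and 1.58 in PB-NICD. In both genes the groups did not overlap, though control 2 lay close to PB-NICD 2 in Rpl36al. The changes were -0.43 (SE 0.14, limma adjusted p = 0.102) and -0.34 (SE 0.11, limma adjusted p = 0.0978). Rpl36al passed the threshold in the fit with a fixed slide block (adjusted p = 0.0483; 0.0732 with a random one), with scaling between arrays (0.0173), in the authors' deposited value table (0.0194) and without control 2 (0.0403).

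Rpl39l read -1.20, -1.29, -1.60 and -1.44 in controls and -1.55, -1.92 and -1.53 in PB-NICD, and was well above background on 5 arrays. Rpl39 read 2.41, 2.46, 2.29 and 2.20 in controls and 1.99, 2.02 and 2.29 in PB-NICD. The groups overlapped in both, with changes of -0.28 (SE 0.14, limma adjusted p = 0.278) and -0.24 (SE 0.12, limma adjusted p = 0.28). Rpl7l1 read 0.57, 0.60, 0.66 and 0.56 in controls and 0.53, 0.72 and 0.38 in PB-NICD, and Rpl7 read 1.60, 1.84, 1.49 and 1.73 in controls and 1.23, 1.44 and 1.52 in PB-NICD. These overlapped as well, with changes of -0.06 (SE 0.11, limma adjusted p = 0.823) and -0.27 (SE 0.12, limma adjusted p = 0.246).

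Rpl22l1 read 1.98, 1.63, 1.45 and 1.37 in controls and 1.64, 1.77 and 1.93 in PB-NICD. Rpl22, the protein it can replace, read 2.04, 1.77, 1.85 and 1.5 in controls and 1.47, 1.56 and 1.59 in PB-NICD. The groups of both overlapped. Rpl22l1 was at 0.18 (SE 0.15, limma adjusted p = 0.577) and Rpl22 at -0.25 (SE 0.13, limma adjusted p = 0.325), though a second probe of Rpl22 gave 0.26. Under median centring all 8 of these genes were above 0. Probes of near-identical copies and pseudogenes, of which ribosomal proteins have many, cannot be told apart here. Of the remaining paralog, Rpl3l, no array gave a red signal well above background.

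At the other end, Rpl27a read 1.72, 1.36, 1.60 and 1.45 in controls and 2.01, 1.90 and 2.09 in PB-NICD. All PB-NICD values lay above all controls. The change of 0.47 (SE 0.12, limma adjusted p = 0.0373) is 1.38-fold higher. It kept its sign in all 23 alternatives, from 0.29 to 1.08, but missed the threshold in 12 of them, among them those without control 2 (adjusted p = 0.091), control 4 (0.0854), PB-NICD 1 (0.1), PB-NICD 2 (0.0705) or PB-NICD 3 (0.117).

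Rpl14 read -0.54, -0.44, -0.74 and -0.42 in controls and 0.03, -0.26 and -0.10 in PB-NICD. Rpl31 read 1.07, 0.84, 1.05 and 0.78 in controls and 1.41, 1.35 and 1.23 in PB-NICD. Neither gene's groups overlapped, with changes of 0.42 (SE 0.12, limma adjusted p = 0.0639) and 0.40 (SE 0.12, limma adjusted p = 0.0655) that missed the threshold after loess. Under median centring both passed it, at 0.95 and 0.88, while a second, dimmer probe of Rpl31 gave 0.01 after loess.

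Rps19, the gene most often mutated in Diamond-Blackfan anaemia, read 1.51, 1.17, 1.44 and 1.09 in controls and 1.63, 1.61 and 1.51 in PB-NICD, where the lowest PB-NICD value was barely above the highest control. Its change was 0.28 (SE 0.13, limma adjusted p = 0.234). These 4 high members were among the 8 dimmest of the family in the red channel: their mean log2 red signal was 8.0 for Rpl14, 8.71 for Rpl31, 9.79 for Rpl27a and 10.50 for Rps19, against a median of 13.49 for the family. The rest of these 8 were Rpl39l (6.5), Rpl7l1 (7.74) and Rps19bp1 (8.17), with a negative change, and Rpl22l1 (9.82), with a positive one. The dimmest of the members called lower was Rps27l, at 12.04. The part of brightness in the direction of the 4 high members was not tested.

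**Figure D2:**
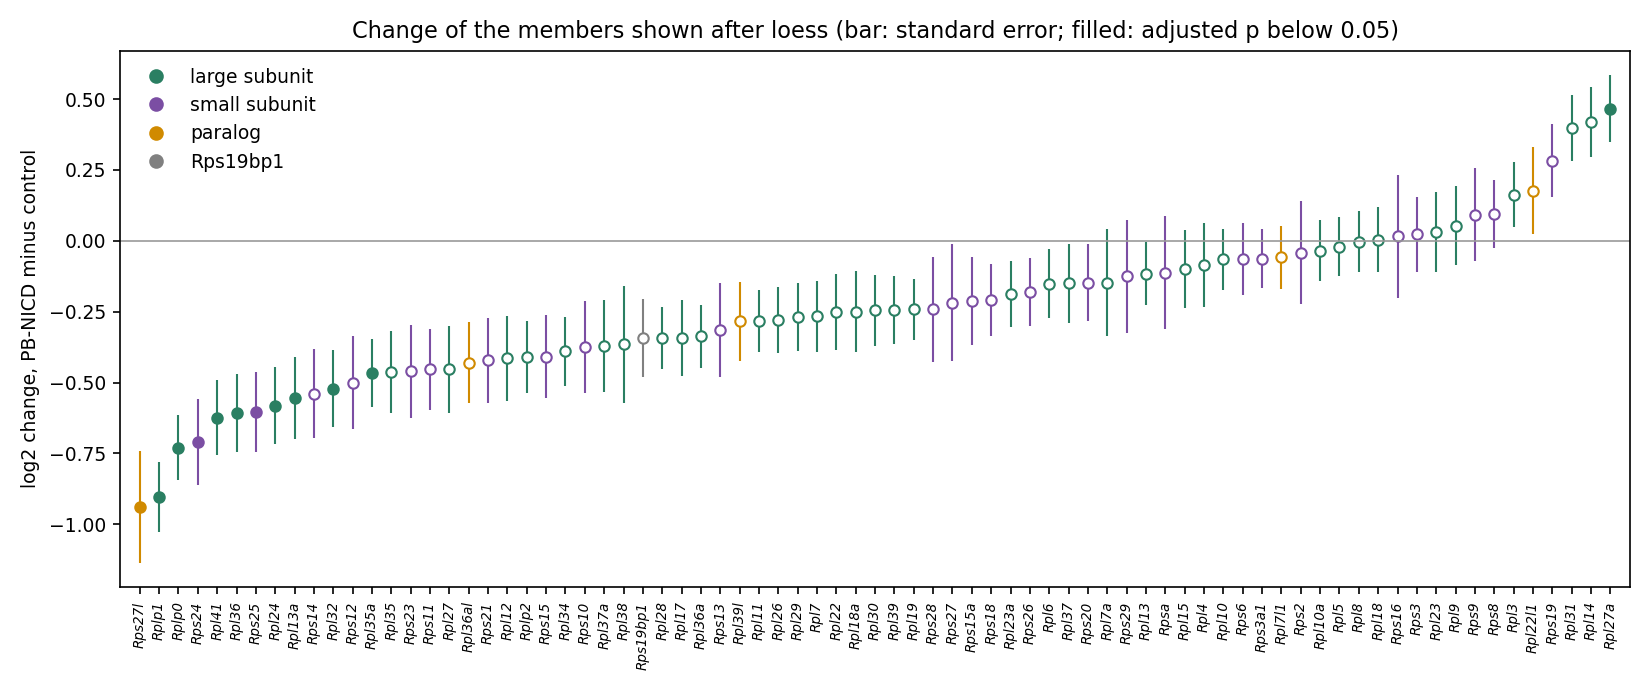
Change after loess (PB-NICD minus control, log2) of 77 of the 79 tested members in rank order, each with its standard error; filled points have an adjusted p below 0.05. Changes run from -0.94 for Rps27l to 0.47 for Rpl27a, and 64 of the 77 lie below 0; under median centring 2 of all 79 do.

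Over the family as a whole, 66 of 79 changes were below 0 after loess, where 54.5% of all items were. The median was -0.25, against -0.03 for all items, and the lower and upper quartiles of the members were -0.42 and -0.06. In 33 members every PB-NICD value lay below every control value, which held for 15.1% of all items, and in 4 every PB-NICD value lay above (10.4% of all items). By array, the median difference of the members from their control means was 0.16, 0.03, 0.01 and -0.16 on controls 1 to 4 and -0.24, -0.32 and -0.24 on PB-NICD 1 to 3. The PB-NICD arrays were the 3 lowest, with control 4 close to them. Under median centring the same medians were -0.16, -0.27, 0.43 and 0.06 on the controls and 0.39, 0.59 and 0.57 on the PB-NICD arrays, so that control 3 lay above PB-NICD 1.

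Ribosomal protein transcripts are bright in both channels, and 70 of the 79 were among the 10% of items brightest in the reference channel. Of these 1693 items, 8.56% were called lower and 1.18% higher after loess, and the median change was -0.07. The 70 members among them included all 13 called lower, and their median change was -0.27. Before the trend with brightness was removed, the bright items were high in PB-NICD: under median centring their median difference from the control mean was 0.58, 0.79 and 0.70 on PB-NICD 1 to 3, and -0.23, -0.27, 0.41 and 0.21 on controls 1 to 4. Loess brings this group close to 0 on every array, and the members then lie below it on all 3 PB-NICD arrays. On PB-NICD arrays the members were above all items but below the bright items under median centring as well. The members also lay below the bright items on control 4, at -0.16 against -0.03 after loess and 0.06 against 0.21 under median centring. On controls 1 and 3 they lay above them under both normalizations, and on control 2 the medians were close. The family's median thus changed sign with the treatment of the trend with brightness, and which treatment is nearer the true levels was not tested.

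**Figure D3:**
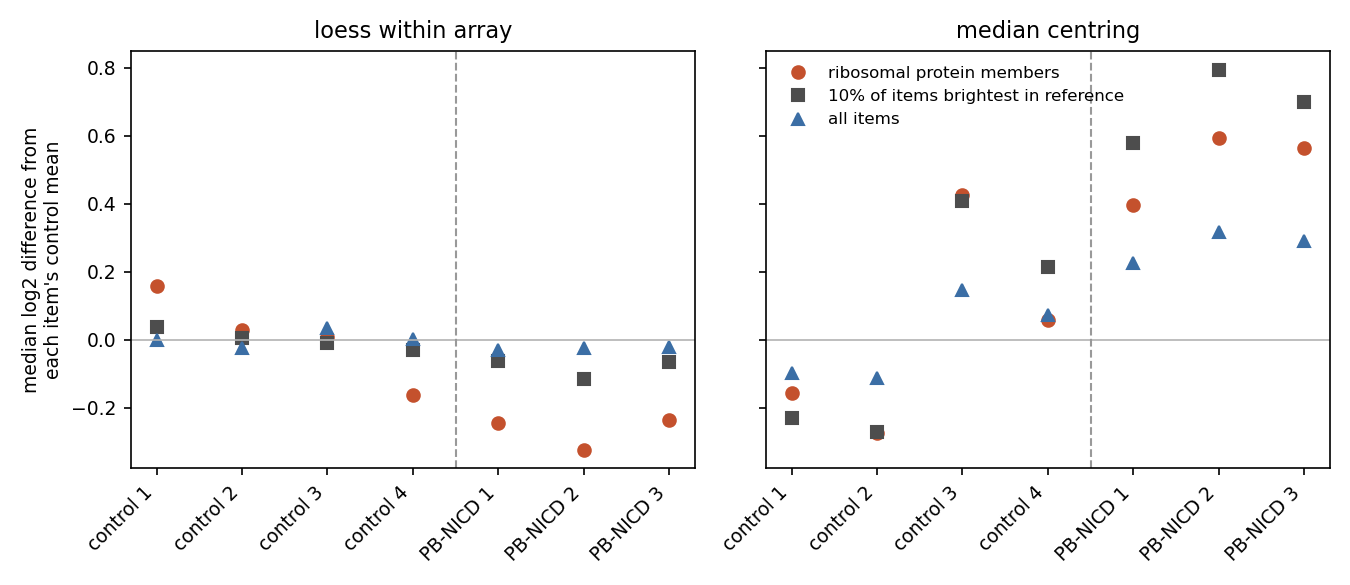
Median log2 difference from each item's control mean on every array, for the ribosomal protein members, the 10% of items brightest in the reference channel, and all items, after loess (left) and after median centring (right). On the PB-NICD arrays the members lie at -0.24 to -0.32 on the left and at 0.39 to 0.59 on the right. They lie below the bright items in both panels there, and on control 4 too.

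The level of an item in prostate relative to reference also went with the calls. Among all items whose mean log2 ratio over both groups lay between 1 and 2, 15.3% were called lower after loess, with a median change of -0.14, and of the 47 members there 6 were lower, with a median of -0.21. Between 2 and 3, 24.7% of all items were called lower, with a median of -0.21, and of the 25 members there 7 were lower, with a median of -0.42. The share of members called lower was thus near that of other items with a like ratio, while their median change was lower in both ranges.

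**Figure D4:**
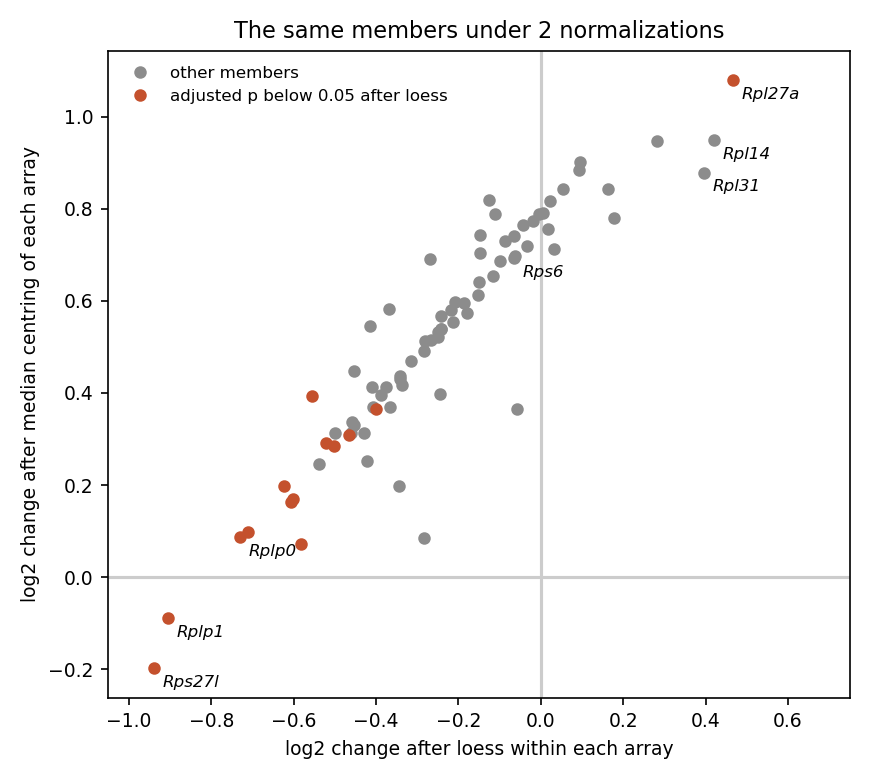
Change of each member after loess (horizontal) and after median centring of each array (vertical), both log2 and PB-NICD minus control. Nearly all points are shifted above 0 under median centring, with only Rps27l (-0.20) and Rplp1 (-0.09) below it. Their order is much the same as a whole, though some members moved far.

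The order of the members among themselves moved little as a whole between normalizations, though some members moved far. Counted from the lowest change, Rpl7l1 went from rank 62 after loess to 21 under median centring. Rpl39l went from 34 to 4, and Rpl12 from 21 to 42. Across the 79 members, changes after loess correlated with those under median centring at r = 0.924, with the processed signals at 0.927, with the red channel alone at 0.939 and with the authors' value table at 0.994. This is a correlation across genes of the same arrays, so it describes the processing and does not replicate the result. Against the median of the family, Rplp1 lay at -0.65 in the main setting and between -0.74 and -0.58 over all settings, and Rps27l between -0.95 and -0.45. Rpl27a lay at 0.72, and between 0.54 and 0.79. The change of Rpl27a exceeded that of Rplp1 by 1.37 in the main setting and by 1.17 to 1.5 over all of them.

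The slides share no array. The first holds a single PB-NICD array, so that a test within it assumes that this array varies like the controls. Over the 77 members with values on both, the changes correlated at r = 0.806 across genes, where the value over all items was 0.747. Of these, 54 were below 0 on both slides, 16 on the first alone, 1 on the second alone and 6 on neither. The median change was -0.32 on the first slide and -0.16 on the second. Fitted within each slide, 10 of 74 members were lower on the first, where 4.98% of all items were. On the second, 2 of 70 were lower (Rplp1 and Rplp0), a share below the 3.68% of all items. No member was higher on either, where 3.12% of all items were on the first and 2.46% on the second. With slide as a fixed block, 16 members were lower and 3 were higher (Rpl27a, Rpl14 and Rpl31), against 7.35% and 4.77% of all items.

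**Figure D5:**
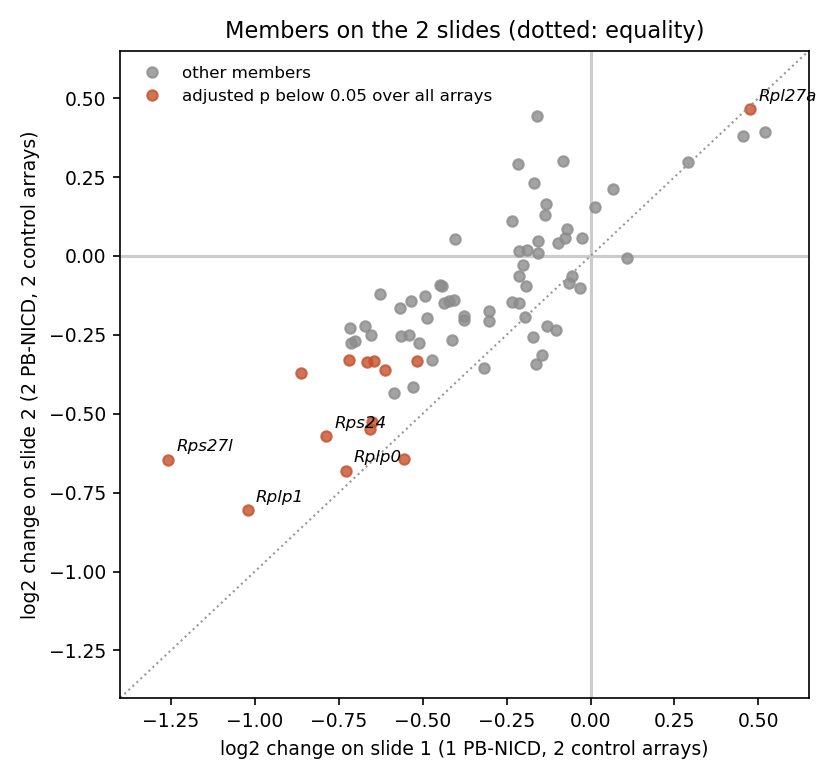
Change of each member on the first slide (1 PB-NICD and 2 control arrays) and on the second (2 of each), after loess, in log2 units; the dotted line marks equality. Rplp1 is at -1.02 and -0.81, Rplp0 at -0.73 and -0.68 and Rpl27a at 0.47 and 0.46, and most members lie closer to 0 on the second slide; under median centring nearly all members shift above 0.

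The number of members called lower depended on single arrays. Leaving out control 1 gave 6 and leaving out control 2 gave 8. Leaving out PB-NICD 1 gave 4 and leaving out PB-NICD 2 gave 2, and each of the others gave 9 to 14. Over the same fits 3.03% to 5.11% of all items were lower, and without PB-NICD 2 the 2 members called, of 77, were a share below that of all items. No member was higher without control 2, control 4 or any one PB-NICD array, where 2.13% to 3.32% of all items were. The median change of the family after loess ranged from -0.30 to -0.22 over these 7 fits. Rplp1 and Rplp0 were called lower in each of them.

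Genes that work with the ribosome were read from lists, and here too median centring moved the lists up, as it did all items. For every list, the background after loess was 5.07% of all items called lower and 3.57% higher. At an unadjusted p below 0.05 it was 12.8% lower and 8.93% higher. Of 6 tested genes that encode ribosome-bound or fused proteins 1 was lower and none was higher. Among them Fau, a fusion of a ubiquitin-like protein with the small subunit protein S30, was at -0.40 (limma adjusted p = 0.338). Of 13 elongation genes 1 was lower, Eef1a1, the factor that brings transfer RNA to the ribosome, with a change of -0.54 (SE 0.11, limma adjusted p = 0.0141). The median of this list was -0.21, and that of the 6 was -0.23. Under median centring Eef1a1 was at 0.28, not past the threshold, and the 2 list medians were 0.46 and 0.50.

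Of 40 initiation genes, 3 were lower and none was higher after loess, where 9 had an unadjusted p below 0.05 with a negative change and 1 with a positive one. The 3 were Pabpc4, a poly(A)-binding protein, with a change of -0.82, Eif1a, which helps scan for the start codon, with -0.53, and Eif4g3, a scaffold of the cap complex, with -0.42. Under median centring 13 of the 40 were higher (25.5% of all items were) and none was lower, and of the 3 only Pabpc4 stayed below 0, at -0.20 (adjusted p = 0.45). Of 70 ribosome biogenesis genes, 3 were higher and none was lower (10 and 4 at an unadjusted p below 0.05), with a median change of -0.0035. The share higher was near the 3.57% of all items. Npm1, a nucleolar chaperone of ribosome assembly, read -0.04, -0.16, -0.22 and -0.04 in controls and 0.26, 0.41 and 0.26 in PB-NICD. The change was 0.42 (SE 0.11, limma adjusted p = 0.0341), and those of Tsr2, which escorts Rps26, and Noc4l, a small subunit assembly factor, were 0.59 and 0.51. Under median centring Npm1 was at 1.11 and Noc4l at 0.97, both past the threshold, Tsr2 was at -0.10 and was not, and 23 of the 70 were higher, again beside 25.5% of all items, and none was lower. Npm1 was above 0 in each of the 8 scalings run, from 0.31 to 1.11, a range over which Rplp1 was below 0.

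Of 23 genes of RNA polymerases I and III, which make ribosomal RNA and transfer RNA, 2 were higher and 1 was lower. Polr3g, an alternative subunit of polymerase III, read 1.51, 0.74, 1.56 and 1.64 in controls and 2.38, 2.57 and 2.67 in PB-NICD, a change of 1.18 (SE 0.20, limma adjusted p = 0.00538). Cd3eap, a polymerase I subunit, was at 0.44, and Rrn3, its initiation factor, was at -0.60, both past the threshold. Under median centring Polr3g (1.24) and Cd3eap (0.80) were still called higher, and Rrn3 (-0.30) was not called. Of 31 genes that control translation, 5 were lower and none was higher (8 and 0 at an unadjusted p below 0.05). Its largest falls were -0.86 for Eif2ak3, the stress kinase PERK, -0.82 for Ddit4, an inhibitor of mTOR, -0.77 for Larp4, which stabilises messenger RNA, and -0.64 for Mycl, a relative of Myc. Under median centring these 4 stayed below 0, from -0.24 to -0.10, without passing the threshold. There 5 other genes of the 31 were higher, beside 25.5% of all items. Myc itself was at -0.01 (adjusted p = 0.986). Of 13 genes of ribosome quality control and the p53 response to ribosomal stress, none passed the threshold, where 3 had an unadjusted p below 0.05 with a negative change.

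Markers of several cell types differed between the groups too, where 5.07% of all items were called lower and 3.57% higher after loess. Of 10 tested basal cell markers 4 were lower, and their mean log2 ratio was 0.55 to 1.40 per control array and 0.19 to 0.29 per PB-NICD array. Krt5, the defining basal keratin, read 1.88, 2.21, 1.83 and 1.69 in controls and 0.42, -0.13 and 0.18 in PB-NICD, and was lower under median centring as well (-1.04, adjusted p = 0.00213). Of 11 smooth muscle markers 2 were lower, with list means of 2.14 to 2.63 in controls and 1.98 to 2.26 in PB-NICD. Among 6 endothelial markers 1 was lower. List means skip missing spots, so arrays average partly different genes: Krt15 is missing on control 2, and Tpm2 and Actg2 on control 3. Of 14 luminal markers 1 was lower (Cd24a, -1.998) and 1 was higher (Krt19, 1.00). Under median centring, 1.65% of all items were called lower and 25.5% higher. There 3 basal markers were lower and 2 higher (list median 0.11), and of smooth muscle markers none was lower and 1 was higher (0.32). Of endothelial markers 1 was lower and 2 higher (0.16), and of luminal markers 1 was lower and 6 higher (0.52). None of the 10 fibroblast, 12 leukocyte and 4 erythroid markers tested passed the threshold, with 3, 3 and 0 at an unadjusted p below 0.05 with a negative change. In prostate tissue of mixed cell types, fewer cells of a type and less RNA per cell cannot be told apart. The part of these cell types in the ribosomal protein values was not tested.

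Besides Rpl3l, 4 members with a probe could not be tested. Rpl21 gave no red signal well above background on any of the 7 arrays. Rps27a, Rps4x and Rps7 were well above background on all arrays but had too few spots free of outlier marks. The values left for Rps27a, a fusion with ubiquitin, were 2.58 on control 4 and 1.95 and 2.22 on PB-NICD 1 and 3. The values left for Rps7 were 1.88 and 1.90 on controls 3 and 4 and 1.96 on PB-NICD 3.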

How the data were processed

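The arrays were read, per the file headers, with Agilent Feature Extraction 10.7.3.1. Of the deposited intensity columns, median signals of each spot and of its surroundings, as scanned, gave the main values; the processed signals, already corrected by the software for background and dye, gave an alternative. Per the file headers, the deposited LogRatio is a log10 ratio of red to green, and other deposited columns hold flags of 0 or 1 per spot. The authors also deposited a log2 value table, with its normalization not given in the sources used. Its columns correlated with their own arrays at r = 0.849 to 0.895, have medians from -0.017 to -0.0095, and run in the direction of red over green.

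Background was corrected with normexp (offset 50), followed by loess within each array with control spots at weight 0, in limma 3.58.1 under R 4.3.3. On PB-NICD 1, 8 spots with a very bright local background drove the normexp fit, which raised that array's median red signal from 33.5 to 299. After this was seen in the data, spots whose local background exceeded 2 times the array's median were left out of that fit and set to missing. The fit on all spots became an alternative. Outlier spots were set to missing and the spots of a probe averaged. Testing a probe took a red signal well above background on 3 or more arrays and 2 or more values per group. Of several probes of a gene the brightest was used.

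Probes were named through RefSeq transcripts of GRCm38.p6 (24375 of 41174 probes). The files use an older build (mm8), so no probe coordinates are given. The groups were compared with lmFit and eBayes, two-sided, with Benjamini-Hochberg adjustment over 16939 items and a threshold of 0.05. The offset draws the ratios of dim spots towards 0. No member spot was saturated, and 25 of 553 member values were missing. On simulated data with this design, 17.6% of changes of 0.5, 66.7% of changes of 1 and 93.9% of changes of 2 (log2) were called, so many changes of the size seen here would be missed. The number of arrays limits the precision.

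Values per array are given for the 6 largest called changes in each direction, the 4 largest rises and falls, Rplp0, Rpl13a, Rps18, Rps6, and each tested paralog with its parent; from each list, the change of up to 4 called genes a direction is given, or else of the 2 with the smallest p. The members and lists were chosen with earlier results of these data known. The ranges of level, the brightest 10%, the order of members and the promoter motifs were chosen after values were seen. Replicate numbers were not taken to pair the samples in the main fit. Deviations of same-numbered samples correlated at 0.288, -0.20 and 0.0913. These values cannot settle whether the samples were paired, because slide goes with them: PB-NICD 1 correlated at 0.326 with control 2, of the same slide. A few genes counted in the totals are not reported by name here.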

Additional observations from a re-analysis of the deposited data

Results flagged for a closer look

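The control arrays of 64 tested members with 4 control values were searched for a single array far from the others (Dixon's test at 95%), and 0 members had one.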

How the results depend on the processing

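The median change of the family was -0.25 in the main setting, -0.43 with scaling between arrays and 0.54 under median centring, and between -0.31 and -0.15 in all other alternatives. The count of members lower was 13. It was 0 under median centring (1.65% of all items), 1 with processed signals (3.76%) and 2 with the red channel alone (2.44%) or within slide 2 (3.68%). With normexp fitted on all spots (chosen after seeing the data) it was 6 (2.29% of all items). With no filter on dim probes it was 7 (2.26%), and in the authors' value table it was 28 (11.5%). Without each array in turn it ranged from 2 to 14, and the count higher, 1 in the main setting, from 0 to 1. That count was 31 under median centring, 3 in the authors' table, with all 7 arrays well above background, and with slide blocked in either way, 2 with processed signals, and 0 with normexp on all spots, no filter on dim probes, within slide 1 or 2, and in the replicate block. The replicate block gave 9 members lower, each also lower in the main setting. The 1464 calls over all items became 4593 under median centring, 457 with normexp on all spots, 884 with red alone, 3205 in the authors' table, 824 within slide 1, 752 within slide 2, and 775 to 1491 without each array in turn.

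Under median centring the sign turned for Rplp0 (0.0872), Rps24 (0.10), Rpl41 (0.20), Rpl36 (0.16), Rpl13a (0.39), Rps18 (0.60), Rps6 (0.69), Rpl7l1 (0.36), Rpl36al (0.31), Rpl39l (0.0842), Rpl7 (0.51), Rpl22 (0.52), Rpl36a (0.42), Rpl39 (0.54) and Rps27 (0.58). With processed signals it turned for Rps6 (0.0536), Rpl7l1 (0.0203) and Rps27 (0.00768), and with red alone for Rps6 (0.17). Keeping outlier spots put Rps6 at 0.0248, and averaging probes put Rpl22 at 0.0041. Rpl22l1 was at -0.0184 with normexp on all spots, -0.0138 with scaling and -0.16 within slide 1, Rpl39l at 0.0478 with normexp on all spots, Rps27 at 0.0545 within slide 2 and Rpl7l1 at 0.0252 without PB-NICD 3. Median centring leaves each array's trend with brightness in place, and how the true levels run was not tested.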
